A study of Homo sapiens with 40 samples.

Results

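The comparison described here set RNA captured on streptavidin beads against the RNA put onto the beads, in human cells that carried a labelling enzyme in the mitochondrial matrix and had been fed 4-thiouridine (s4U). It was formed from 4 of the 40 libraries of the series, namely the enriched and the input libraries of replicates 1 and 2 of the MITO s4U arm, taken by their titles and paired by replicate number. The cells were HEK293T, an established human embryonic kidney line, and expressed the engineered peroxidase APEX2 fused to a mitochondrial matrix targeting sequence (MITO). In the s4U arm the cells received s4U at 100 uM for 5 h in all, biotin-phenol at 0.5 mM for the last 30 min and hydrogen peroxide at 1 mM for 1 min. Other arms with the same construct served for comparison. The s6G arm had 6-thioguanosine in place of s4U at the same dose and time, the APEX only arm had biotin-phenol and no thionucleoside, and the unlabelled arm had neither of these but was given the peroxide. The construct, the peroxide and polyA selection were shared by every MITO library, and enriched libraries were amplified for 15 cycles of PCR against 11 for inputs. Each arm had 2 biological replicates, whose relation to separate cultures is not described further, so p-values measure the spread between libraries only. For single genes that spread was taken over all MITO arms and shared across genes. Their p-values and standard errors therefore do not rest on the 2 s4U pairs alone.

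Human mitochondria keep a small circular genome that is transcribed from both strands into long precursors. These are cut at tRNA genes into the mRNAs of respiratory chain subunits, 2 rRNAs and the tRNAs, all of which stay in the matrix, whereas most mitochondrial proteins are made from nuclear genes in the cytosol and imported. APEX2 oxidises biotin-phenol to a radical that reacts within a short distance, so that RNA near the enzyme becomes biotinylated, and the series tested whether electron-rich nucleosides built into RNA by living cells change that capture. s4U is taken up through the uridine salvage pathway, so it enters RNA made during the labelling period.

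The s4U enriched libraries held 5111763 and 3495198 counts, and their inputs held 3942369 and 4190431. Counts from mitochondrial DNA made up 26.3% and 38.8% of the enriched libraries, against 4.10% and 4.26% of the inputs (the widest Wilson 95% interval ran from 38.8% to 38.9% and covers counting error only). The enriched share was 6.42 times the input share in replicate 1 and 9.12 times in replicate 2, a mean difference of 28.4 percentage points. An exact two-sided permutation test of 2 against 2 libraries gave p = 0.333, the smallest p that this design allows, and p = 0.5 within the 2 pairs, again the smallest possible. A high share was not particular to s4U. Enriched libraries held 39.8% and 34.2% with APEX only, against 4.67% and 3.57% of their inputs. With s6G they held 36.1% and 58.2%, against 5.54% and 5.90%. In the unlabelled arm the enriched share was 4.09% and 9.53%, against 5.48% and 4.81% of the inputs. The unlabelled enriched libraries were far shallower, at 123341 and 842177 counts, and results that use the fit across arms are therefore also given without that arm. Of 9 markers of HEK293 cells, 8 had counts in each s4U library, with summed levels of 507 and 749.9 CPM in enriched and 565 and 676 CPM in input libraries, while 10 blood markers summed to at most 3.75 CPM in enriched and 7.15 CPM in input libraries. The 8 fibroblast markers summed to 21.4 and 59.3 CPM in enriched and 45.3 and 74.3 CPM in input libraries. Of these, COL1A1 alone had 17.6 and 50.8 CPM in enriched and 41.2 and 68.5 CPM in input libraries. The 6 endothelial markers summed to at most 4.43 CPM in enriched and 3.84 CPM in input libraries.

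With s4U, 266 genes were called higher in the enriched libraries, which is 1.76% of the 15151 genes tested, and 489 were called lower, which is 3.23% (edgeR quasi-likelihood test with the replicate number as a block, fitted to the 16 MITO libraries, Benjamini-Hochberg adjusted p below 0.05). The genes called higher comprised 17 of the 19 tested genes of mitochondrial DNA and 249 other genes. The mitochondrial genes stood apart in size. The median log2 fold change was 3.21 for the 13 mitochondrial mRNAs, 0.91 for the other genes called higher and -0.93 for the genes called lower, beside 0.01 for all tested genes. Enriched and input levels did not overlap for 688 of the 755 called genes (4.98% of those tested), against 37% of all tested genes, of which 17.3% were higher and 19.7% lower. The calls outside mitochondrial DNA rested on the pairing: without the block 17 genes were called higher (0.112%) and 0 lower, and 16 of those 17 were among the 755. With replicate 1 left out 28 genes were called in all, and with replicate 2 left out 69. Without the shallow unlabelled arm, 1289 genes were called higher (9.3% of 13865) and 1345 lower (9.7%), and these included 752 of the 755. Scaling by total counts moved the median of all genes by -0.45 and gave 44 genes higher and 1680 lower.

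All 13 mitochondrial mRNAs lay higher in both enriched libraries than in both inputs, and 12 passed the test. Levels are given as CPM, which are counts scaled to the library total with TMM factors. MT-CO1, which encodes the core subunit of cytochrome c oxidase (complex IV), is located at positions 5904 to 7445 of the mitochondrial genome. It stood at 83672 and 126254 CPM in the enriched libraries, against 7562 and 7406 CPM in the inputs, and had the highest log2 fold change of the mRNAs, 3.78 ± 0.46 (SE, n = 2 pairs, edgeR adjusted p = 3.6e-09). The enriched libraries differed from each other more than the inputs did, with 104963 ± 30110 CPM in enriched against 7484 ± 110 CPM in input libraries (SD, n = 2 each). The other complex IV subunits, MT-CO2 (3.06 ± 0.38, adjusted p = 1.05e-08) and MT-CO3 (3.53 ± 0.40, adjusted p = 1.33e-09), also rose.

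**Figure D1:**
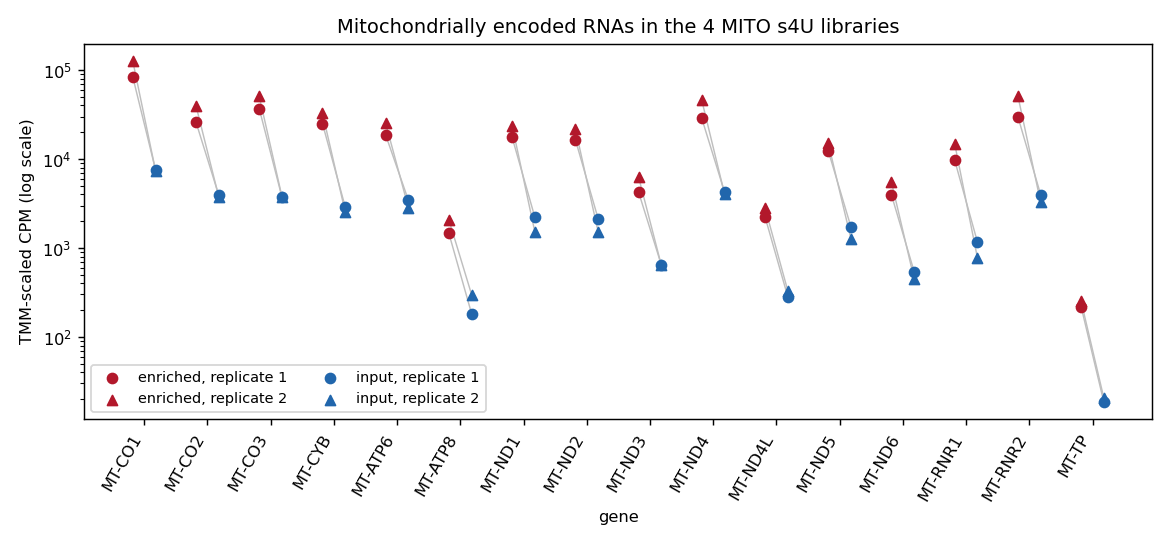
TMM-scaled CPM on a log axis of 16 mitochondrially encoded genes in the 4 MITO s4U libraries, with enriched libraries in red on the left and inputs in blue on the right of each gene, circles for replicate 1, triangles for replicate 2 and grey lines joining a pair. For every gene shown both enriched libraries lie above both inputs, from MT-CO1 at 83672 and 126254 CPM against 7562 and 7406 CPM to MT-TP at 219 and 251 CPM against 18.4 and 20.4 CPM.

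MT-CYB, the only mitochondrially encoded subunit of complex III, stood at 25059 and 32822 CPM in enriched libraries, against 2899 and 2545 CPM in inputs, a log2 fold change of 3.40 ± 0.39 (adjusted p = 5.2e-09). The subunits of ATP synthase gave the lowest values. MT-ATP6, which forms part of its proton channel, stood at 18608 and 25141 CPM in enriched libraries, against 3432 and 2837 CPM in inputs, with a log2 fold change of 2.79 ± 0.38 (adjusted p = 1.03e-06). MT-ATP8 stood at 1457 and 2070 CPM, against 181 and 297 CPM, with 2.90 ± 0.27 (adjusted p = 8.99e-14). These genes overlap by 46 bases in the RefSeq annotation, so reads from one could be given to the other or to neither.

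The 7 mitochondrial subunits of complex I, the NADH dehydrogenase, spanned log2 fold changes of 3.01 (MT-ND3) to 3.48 (MT-ND1). MT-ND6, the one mRNA read from the light strand, stood at 3948 and 5503 CPM in enriched libraries, against 539 and 446 CPM in inputs (3.25 ± 0.33, adjusted p = 1.11e-10), within the range of the heavy-strand mRNAs. MT-ND4L, which shares 7 bases with MT-ND4, had 2241 and 2826 CPM in enriched libraries and 284 and 331 CPM in inputs. Its groups lay as far apart as those of its neighbours, but its log2 fold change of 3.04 ± 0.77 missed the threshold in the fit of all arms (adjusted p = 0.115) and passed it without the unlabelled arm. Replicate 2 showed the larger enrichment for 12 of the 13 mRNAs: the log2 ratio of enriched to input CPM had a median of 3.57 in pair 2 and 2.95 in pair 1.

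Both rRNAs of the mitochondrial ribosome rose. MT-RNR1, the small subunit rRNA, stood at 9684 and 14868 CPM in enriched libraries, against 1166 and 772 CPM in inputs, with a log2 fold change of 3.66 ± 0.35 (adjusted p = 1.76e-11). MT-RNR2, the large subunit rRNA, stood at 29820 and 51143 CPM, against 3969 and 3253 CPM, with 3.44 ± 0.42 (adjusted p = 1.59e-07). Of 22 mitochondrial tRNA genes, 15 had no count in the 4 libraries, and 4 could be tested. MT-TP, the proline tRNA gene at positions 15956 to 16023, was the best covered, with 219 and 251 CPM in enriched libraries against 18.4 and 20.4 CPM in inputs (3.59 ± 0.27, adjusted p = 5.1e-18). MT-TC and MT-TY, the cysteine and tyrosine tRNA genes, were called higher on few reads. Neither was called without the block (edgeR adjusted p = 0.132 and 0.432), and DESeq2 called 1 of the 4 tested tRNA genes. MT-TC had 33 counts over the enriched and 1 over the input libraries, a ratio of 43.2 after scaling with a 95% counting interval of 7.22 to 1756. MT-TY had 39 counts against 3, a ratio of 17.0 with an interval of 5.40 to 86.0. MT-TF, the phenylalanine tRNA gene, had 9 counts over the enriched libraries and 0 over the inputs, at least 3.92-fold higher against a floor of 3 counts over the group, and was not called (adjusted p = 0.0878). Its enriched levels with s4U, 0.47 and 2.39 CPM, lay below the 5.47 and 8.47 CPM of the unlabelled enriched libraries. Without the unlabelled arm the expression filter left MT-TF out of the test. MT-TC and MT-TY lie side by side on the light strand and share 1 base.

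The table also counts nuclear copies of mitochondrial genes, whose near-identical sequence means that reads from mitochondrial RNA cannot be told apart from reads of their own. Of 10 such genes that were tested, 7 were called higher, beside 1.76% of all genes, and 4 with either replicate left out. MTCO1P12, a copy of MT-CO1 on chromosome 1 (631074 to 632616, GRCh38.p14), had the highest log2 fold change of any gene outside mitochondrial DNA that the naming rule took. It stood at 376 and 798 CPM in enriched libraries, against 22.7 and 33.2 CPM in inputs (4.33 ± 0.27, adjusted p = 6.24e-24). MTATP6P1, at 3349 and 4096 CPM against 526 and 429 CPM, had a log2 fold change of 2.96 ± 0.64 and missed the threshold with the block (adjusted p = 0.0512).

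The makeup of the mitochondrial counts differed somewhat between enriched and input libraries. MT-CO1 supplied 26.4% and 27.2% of all mitochondrial counts in the enriched libraries, against 19.6% and 21.5% in the inputs. MT-ATP6 supplied 5.87% and 5.42% in the enriched libraries, against 8.88% and 8.25% in the inputs, and MT-CO2 8.19% and 8.55%, against 10.2% and 10.9%. Both replicates thus gave MT-CO1 a larger part and MT-ATP6 and MT-CO2 a smaller part of the captured mitochondrial RNA, by log2 ratios of 0.43 and 0.34, -0.60 and -0.61, and -0.31 and -0.35. MT-CO3 supplied 11.6% of enriched against 9.62% of input counts in replicate 1 and 10.9% of both in replicate 2. Per length, in the authors' deposited TPM (the mean of both replicates, with no error), MT-CO1 was also first in the enriched libraries at 141731 TPM, before MT-CO3 at 116951 TPM, while MT-CO2 was first in the inputs at 43990 TPM, before MT-CO1 at 38085 TPM. These TPM are levels, not differences, and share the libraries and the polyA selection. With s4U, 1 of the 13 mRNAs had a larger share in both enriched libraries than in both inputs, and 7 had a smaller one. Shifts in the same directions were seen without s4U. In the APEX only arm MT-CO1 supplied 52.7% and 49.8% of enriched, against 22.3% and 17.4% of input counts. There MT-ATP6 supplied 4.07% and 4.35%, against 7.81% and 9.29%, and MT-CO2 6.03% and 4.55%, against 10.3% and 10.1%.

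**Figure D2:**
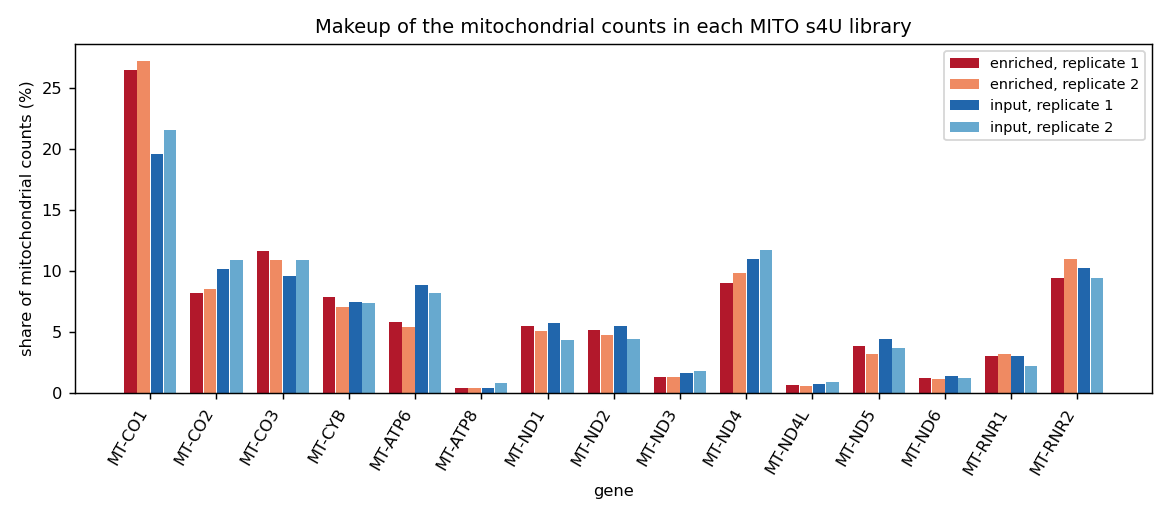
Share of all mitochondrial counts (%) that each of the 13 mRNAs and 2 rRNAs supplied in the 4 MITO s4U libraries, with enriched libraries in red tones left of inputs in blue tones. MT-CO1 supplies 26.4% and 27.2% of the enriched libraries, against 19.6% and 21.5% of the inputs, and MT-ATP6 supplies 5.87% and 5.42%, against 8.88% and 8.25%.

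Compared with the unlabelled arm, capture with s4U was stronger for 12 of 13 mRNAs and both rRNAs, each tested as a difference of enriched-over-input changes. That difference was called higher for 6.9% of all genes and lower for 3.71% (1046 and 562 genes, 10.6% together), and without the block for 29 (0.191%) and 11 (0.0726%). MT-CO1 had a log2 fold change of 3.78 ± 0.46 with s4U and -0.07 ± 0.43 in the unlabelled arm, a difference of 3.85 ± 0.61 (adjusted p = 2.74e-05), and the median difference over the 13 mRNAs was 3.36. With replicate 1 left out 287 genes were called, and with replicate 2 left out 760. With RLE scaling the same comparison gave 687 genes higher and 794 lower, and with total counts 122 and 1114. The unlabelled pairs went opposite ways for MT-CO1. Its CPM were 4212 enriched against 9206 input in replicate 1, and 16359 against 8320 in replicate 2. In that arm MT-ND6 (0.89 ± 0.32, edgeR adjusted p = 0.0386) and MT-ND3 (0.77 ± 0.29, adjusted p = 0.0493) were called higher. So was the tRNA gene MT-TF, on few reads, at 5.47 and 8.47 CPM enriched against 0.22 and 0 CPM input (5.89 ± 1.58, adjusted p = 0.00458).

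Against the APEX only arm, no mitochondrial mRNA or rRNA passed the test of the difference by edgeR, with or without the unlabelled arm, or by DESeq2, and 2 of the 15 had an unadjusted p under 0.05. The median difference over the 13 mRNAs was 0.11, and values ran in both directions, with 5 below 0. With total counts the median was 0.38, with 3 below 0. MT-CO1 had 3.78 with s4U and 5.28 with APEX only, a difference of -1.50 with a 95% interval of -2.66 to -0.35 (adjusted p = 0.29). MT-ND6 had 3.25 with s4U and 4.30 with APEX only, a difference of -1.05 (interval -1.92 to -0.18, adjusted p = 0.342). MT-RNR1 had 3.66 with s4U and 3.02 with APEX only, a difference of 0.64 (interval -0.26 to 1.53, adjusted p = 0.637). The intervals of MT-CO1 and MT-ND6 lay below 0 before adjustment over all genes, and that of MT-RNR1 held 0.

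Against s6G, the other thionucleoside at the same dose and time, all 13 mRNAs and both rRNAs had lower log2 fold changes with s4U, whereas with total counts 7 of these 15 were lower and the median difference was 0.00014. Of these 15 differences 0 passed the test by edgeR, 0 by DESeq2 and 0 at an unadjusted p under 0.05. The differences spanned -1.02 (MT-RNR2, 95% interval -2.13 to 0.10) to -0.10 (MT-RNR1, interval -1.01 to 0.81), with a median of -0.45. Over all genes 0 were called in this comparison (0% of 15151) by edgeR and 0 by DESeq2, with 341 genes (2.25%) at an unadjusted p under 0.05.

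**Figure D3:**
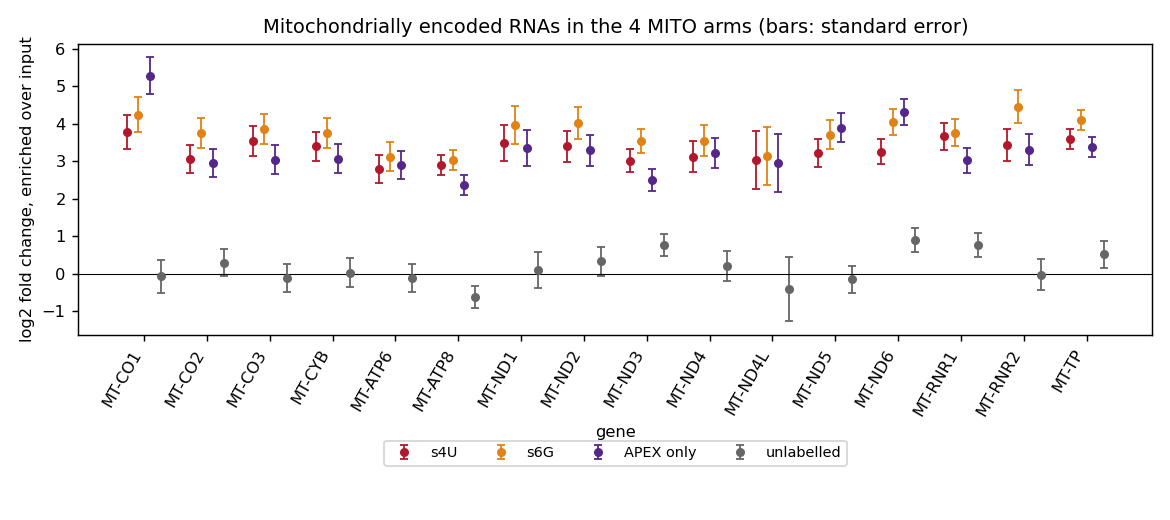
Log2 fold change of enriched over input with its standard error for 13 mRNAs, 2 rRNAs and MT-TP in the s4U, s6G, APEX only and unlabelled arms, from left to right within each gene (n = 2 pairs per arm). The s4U values run from 2.79 (MT-ATP6) to 3.78 (MT-CO1), against 5.28 for MT-CO1 with APEX only, while the unlabelled values lie between -0.61 (MT-ATP8) and 0.89 (MT-ND6).

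Outside mitochondrial DNA, the genes called higher included immediate-early genes, whose short-lived transcripts are switched on within minutes of a stimulus. Of 39 tested members of that list, 8 were called higher and 0 lower, beside 1.76% and 3.23% of all genes, with a median log2 fold change of 0.54 against 0.01 for all genes. Without the block 0 were called, without the unlabelled arm 15 were, beside 9.3% of all genes, and with total counts 3 were, with a median of 0.08 against -0.45 for all genes. With replicate 1 left out 1 was called, and with replicate 2 left out 5. FOS (chromosome 14, 75278828 to 75282230), a subunit of the AP-1 transcription factor, stood at 77.9 and 10.3 CPM in enriched libraries, against 5.74 and 1.16 CPM in inputs. Both replicates showed the rise although their levels differed several-fold, and the log2 fold change was 3.59 ± 0.47 (adjusted p = 8.82e-06). FOSB, another AP-1 subunit, stood at 60.5 and 14.02 CPM in enriched libraries, against 9.09 and 5.01 CPM in inputs (2.23 ± 0.36, adjusted p = 4.5e-05).

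EGR1, a zinc finger transcription factor, had 44.5 and 6.15 CPM in enriched libraries, against 7.89 and 3.86 CPM in inputs, so that its groups overlapped, with a log2 fold change of 1.88 ± 0.40 (adjusted p = 0.00316). DUSP1, a phosphatase that switches off MAP kinases, stood at 91.6 and 37.3 CPM, against 23.2 and 21.02 CPM (1.44 ± 0.26, adjusted p = 0.000182). In these genes replicate 1 had the higher enriched level. FOS and EGR1 also rose in the s6G arm, with log2 fold changes of 4.68 ± 0.43 for FOS (adjusted p = 3.54e-09) and 3.41 ± 0.35 for EGR1 (adjusted p = 4.48e-10), and in the APEX only arm, with 2.34 ± 0.43 for FOS (adjusted p = 0.000681) and 2.45 ± 0.42 for EGR1 (adjusted p = 6.62e-05). FOS had 0 counts in both unlabelled enriched libraries and about 1 CPM in their inputs, so no fold is given there. The list's median was 0.87 with s6G, 0.07 with APEX only and -0.62 in the unlabelled arm. For none of its members did the difference between s4U and APEX only pass the test.

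Promoters of 3 of these genes are shown as a description only, since captured against input RNA does not measure transcription. The 250 bases before the RefSeq start (GRCh38.p14) were searched on both strands for TGACG, the core of the cAMP response element, and for the CArG box bound by serum response factor, which is searched by its name's consensus. RefSeq promoters were matched for 7 of the 8 called members. TGACG was found in 5 of the 7, against 21.2% of 35116 promoters of the same length, and the CArG box in 1, against 1.16%. The 7 came from a list of immediate-early genes, so these counts describe that class and test nothing about capture. Capitals mark these matches, which do not overlap each other except where TGACG repeats on both strands, and a match describes letters only. The regions are FOS chr14:75278578-75278827 (+), EGR1 chr5:138465229-138465478 (+) and DUSP1 chr5:172771196-172771445 (-).
FOS: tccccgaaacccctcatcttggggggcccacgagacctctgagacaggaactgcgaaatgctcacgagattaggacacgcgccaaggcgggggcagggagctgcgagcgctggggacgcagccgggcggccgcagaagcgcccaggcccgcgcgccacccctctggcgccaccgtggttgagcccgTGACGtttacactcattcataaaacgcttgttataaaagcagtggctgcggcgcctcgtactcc
EGR1: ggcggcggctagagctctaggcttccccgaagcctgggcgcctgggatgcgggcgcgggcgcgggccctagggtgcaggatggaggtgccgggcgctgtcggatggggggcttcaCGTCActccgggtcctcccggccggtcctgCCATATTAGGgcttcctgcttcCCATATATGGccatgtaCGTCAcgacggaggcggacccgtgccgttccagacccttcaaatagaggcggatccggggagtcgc
DUSP1: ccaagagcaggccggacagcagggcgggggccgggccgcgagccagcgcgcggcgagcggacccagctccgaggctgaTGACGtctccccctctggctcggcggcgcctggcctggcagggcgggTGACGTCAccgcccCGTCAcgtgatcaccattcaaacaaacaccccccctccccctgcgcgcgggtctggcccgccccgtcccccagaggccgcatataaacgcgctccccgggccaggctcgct
FOS holds 1 TGACG, EGR1 holds 2 with 2 CArG boxes between them, and DUSP1 holds 4, of which a pair forms the full palindrome.

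Genes of the heterogeneous nuclear ribonucleoproteins (hnRNPs), abundant proteins that coat nascent transcripts and steer splicing, formed another group among the genes called higher. This family was picked by its symbols after its values were seen, so its count is a description. Of 20 tested protein-coding HNRNP genes, 12 were called higher and 0 lower, beside 1.76% and 3.23% of all genes, with a median log2 fold change of 0.89. Without the block 0 were called, without the unlabelled arm 15 were, beside 9.3% of all genes, and with total counts 6 were called higher and 1 lower. With replicate 1 left out 2 were called, and with replicate 2 left out 3. HNRNPA2B1 (chromosome 7, 26189927 to 26200746) stood at 5197 and 4928 CPM in enriched libraries, against 1983 and 1741 CPM in inputs (1.45 ± 0.29, adjusted p = 0.000698). HNRNPH3 stood at 494 and 487 CPM in enriched libraries, against 165 and 162 CPM in inputs (1.59 ± 0.24, adjusted p = 1.5e-06). Replicates of each kind lay close together for both genes. HNRNPH2, HNRNPA3 and HNRNPA1 were also in the 10 highest outside mitochondrial DNA among called genes whose groups did not overlap and whose log2 CPM averaged at least 4, with log2 fold changes of 1.37 ± 0.24, 1.33 ± 0.26 and 1.28 ± 0.29.

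Other members did not pass the test. HNRNPC had 1471 and 720 CPM in enriched libraries and 1399 and 978 CPM in inputs, and HNRNPK had 913 and 573 CPM in enriched libraries and 776 and 629 CPM in inputs. HNRNPA1L3, at 292 and 242 CPM in enriched libraries against 88.0 and 78.9 CPM in inputs (1.67 ± 0.24, adjusted p = 6.26e-07), is a near-identical copy of HNRNPA1, so its reads may come from that gene. HNRNPA2B1 also rose with s6G (2.12 ± 0.30, adjusted p = 9.73e-08) and with APEX only (2.07 ± 0.29, adjusted p = 2.02e-07), while it had -0.31 ± 0.30 in the unlabelled arm (adjusted p = 0.474). The difference between s4U and unlabelled was called for HNRNPA2B1 (1.76 ± 0.41, adjusted p = 0.00284) and HNRNPH3 (1.69 ± 0.36, adjusted p = 0.00113). No HNRNP gene differed between s4U and APEX only in that test.

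A further list held genes of nuclear speckles and of transcripts known for introns that are retained in the nucleus. Of 37 tested, 5 were called higher and 1 lower, beside 1.76% and 3.23% of all genes, with a median of 0.50. Without the block 0 were called, without the unlabelled arm 23 were called higher and 1 lower, beside 9.3% and 9.7% of all genes, and with total counts 0 were called higher and 1 lower. With either replicate left out 0 were called. CLK1, a kinase of splicing factors, stood at 143 and 64.6 CPM in enriched libraries, against 58.8 and 31.0 CPM in inputs (1.18 ± 0.23, adjusted p = 0.000632). The member called lower was SRRM2, a scaffold protein of speckles, at 575 and 580.2 CPM in enriched libraries, against 1291 and 936 CPM in inputs (-0.93 ± 0.27, adjusted p = 0.0301). GPATCH4, a G-patch protein of the nucleolus that no list held, stood at 456 and 251 CPM in enriched libraries, against 192 and 82.7 CPM in inputs (1.42 ± 0.24, adjusted p = 5.56e-05).

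**Figure D4:**
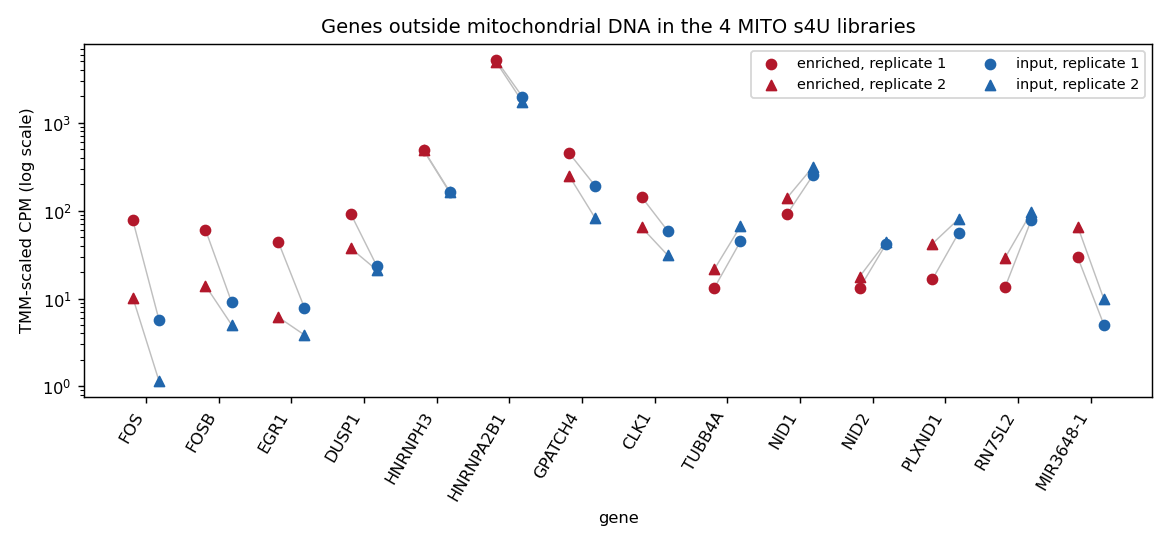
TMM-scaled CPM on a log axis of 14 named genes outside mitochondrial DNA in the 4 MITO s4U libraries, enriched in red left of input in blue, circles for replicate 1, triangles for replicate 2 and grey lines joining a pair. FOS differs several-fold between replicates (77.9 and 10.3 CPM enriched, 5.74 and 1.16 CPM input) but shows the same direction in both, while NID1 lies lower in both enriched libraries (91.1 and 139.8 CPM) than in both inputs (255 and 318 CPM).

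Among genes called lower, those of secreted and extracellular matrix proteins, which are translated at the endoplasmic reticulum, had the most calls of any list. Of 44 tested members, 21 were called lower and 0 higher, beside 3.23% of all genes, and 43 had a log2 fold change below 0, with a median of -0.79. Without the block 0 were called, without the unlabelled arm 31 were called lower, beside 9.7% of all genes, and with total counts 35 were, with a median of -1.26 against -0.45 for all genes. With replicate 1 left out 0 were called, and with replicate 2 left out 4. NID1 and NID2, the nidogens that link laminin and collagen in basement membranes, both fell. NID1 (chromosome 1, 235975830 to 236065090) stood at 91.1 and 139.8 CPM in enriched libraries, against 255 and 318 CPM in inputs (-1.33 ± 0.25, adjusted p = 0.000491). NID2 stood at 13.2 and 17.8 CPM, against 41.4 and 44.0 CPM (-1.48 ± 0.29, adjusted p = 0.00066). The enriched levels were lower than both inputs for each.

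Further members that fell include FN1, fibronectin, at 24.3 and 36.2 CPM in enriched libraries, against 58.8 and 82.3 CPM in inputs (-1.23 ± 0.24). HSPG2, perlecan, stood at 6.36 and 18.1 CPM in enriched libraries, against 17.0 and 48.8 CPM in inputs (-1.42 ± 0.30, adjusted p = 0.00153), so that its groups overlapped while both pairs showed the fall. SPON1, a matrix glycoprotein, stood at 15.5 and 6.84 CPM in enriched libraries, against 38.02 and 19.5 CPM in inputs (-1.37 ± 0.32, adjusted p = 0.00412). The list's median was -0.62 in the s6G arm, -0.17 in the APEX only arm and -0.28 in the unlabelled arm. Of its members, 0 passed the test of the difference between s4U and APEX only, and 3 passed the test of the difference between s4U and the unlabelled arm, with the lower value for s4U.

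Surface receptors, lysosomal proteins and other transcripts of the secretory route also included genes called lower. Of 46 receptor genes, 10 were called lower and 0 higher (median -0.35), beside 3.23% of all genes called lower. Without the unlabelled arm 14 were called lower, beside 9.7% of all genes, with replicate 1 left out 0 were, and with replicate 2 left out 2. PLXND1, a plexin receptor, stood at 16.5 and 42.1 CPM in enriched libraries, against 55.5 and 80.2 CPM in inputs (-1.31 ± 0.25, adjusted p = 0.000477). LRP1, an endocytic receptor, and NOTCH3 had log2 fold changes of -1.18 ± 0.24 and -1.15 ± 0.25. Of 38 lysosomal genes, 6 were called lower and 0 higher (median -0.44), among them MAN2B1, a mannosidase, at -1.28 ± 0.26, and the cathepsins CTSB at -1.13 ± 0.24 and CTSD at -1.03 ± 0.26. Without the unlabelled arm 14 lysosomal genes were called lower and 1 higher, and with either replicate left out 0 were called. These falls were not particular to s4U. In the unlabelled arm the receptor list had a median of -0.33 and the lysosomal list one of -0.49, beside -0.12 for all genes. With APEX only the medians were -0.38 and -0.11. Translocon and glycosylation genes of the endoplasmic reticulum had 3 members lower and 1 higher of 27. Folding factors of that compartment had 1 lower of 25, and Golgi genes 1 lower of 41.

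The genes called lower also included housekeeping transcripts of the cytosol. Of 20 cytoskeletal genes, 4 were called lower and 0 higher (median -0.54), with all 20 below 0, beside 3.23% of all genes called lower. ACTB, which encodes beta-actin, stood at 1376 and 782 CPM in enriched libraries, against 2936 and 1532 CPM in inputs (-1.03 ± 0.25, adjusted p = 0.00621). Of 19 glycolytic genes, 5 were called lower and 0 higher (median -0.58), led by ALDOA, aldolase A, at -1.15 ± 0.25. Of 76 cytosolic ribosomal protein genes, 5 were called lower and 0 higher (median -0.33), a share of members nearer to that of all genes, and without the unlabelled arm 19 were lower and 3 higher. Without that arm 11 cytoskeletal and 9 glycolytic genes were called lower, beside 9.7% of all genes, and with either replicate left out 0 members of these 3 lists were called. The translation elongation factor EEF2 had 2579 and 2328 CPM in enriched libraries, against 5430 and 4746 CPM in inputs (-1.05 ± 0.28, adjusted p = 0.0152). EEF2 was also called lower in the unlabelled arm (-1.50 ± 0.29, edgeR adjusted p = 0.000141), and its difference between the arms, 0.45 ± 0.40, did not pass the test. In the APEX only arm the ribosomal protein list had a median of 0.34, the glycolytic list one of -0.07 and the cytoskeletal list one of -0.35. In the unlabelled arm these medians were 0.31, -0.58 and -0.51, beside -0.12 for all genes, so the glycolytic and cytoskeletal falls were not particular to s4U.

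**Figure D5:**
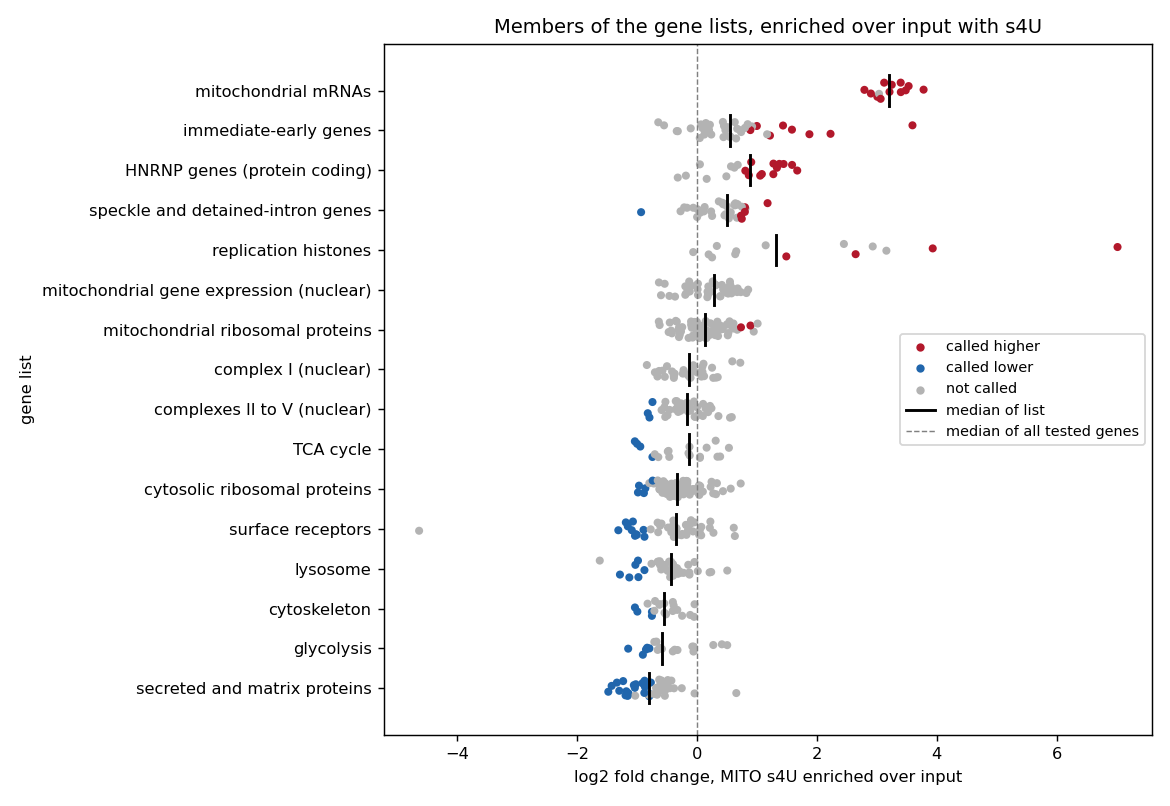
Log2 fold change of MITO s4U enriched over input (x axis) for tested members of 16 gene groups (y axis), with members called higher in red, called lower in blue and others in grey, a black bar for each group's median and a dashed line at the median of all tested genes. Mitochondrial mRNAs lie apart at a median of 3.21, immediate-early and HNRNP genes lie to the right of the dashed line (0.54 and 0.89) and secreted and matrix genes to the left (-0.79).

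Nuclear genes whose proteins work in mitochondria were called in both directions, beside 1.76% higher and 3.23% lower of all genes. Of 33 tested nuclear subunits of complex I, 0 were called in either direction by edgeR and 0 by DESeq2 (median -0.12, with 2 higher and 5 lower at an unadjusted p under 0.05), and without the unlabelled arm 2 were called higher and 4 lower. Of 42 subunits of complexes II to V, 3 were called lower and 0 higher (median -0.16), and without the unlabelled arm 9 lower and 2 higher. COX5A, a nuclear subunit of complex IV, stood at 137 and 123 CPM in enriched libraries, against 243 and 192 CPM in inputs (-0.74 ± 0.24, adjusted p = 0.0476), while its mitochondrially encoded partners rose by 3.06 to 3.78. CYC1, cytochrome c1 of complex III, had -0.79 ± 0.23 and ATP5F1D, a subunit of ATP synthase, -0.82 ± 0.24. In the unlabelled arm CYC1 was also called lower (-0.94 ± 0.27, edgeR adjusted p = 0.00946). There ATP5F1D had -0.48 ± 0.29 and COX5A 0.07 ± 0.27, and neither was called. For none of these genes did the difference between s4U and the unlabelled arm pass the test. Of 19 genes of the tricarboxylic acid cycle, 4 were called lower and 0 higher, and without the unlabelled arm 7 lower and 1 higher. With either replicate left out, 0 members of these lists were called by edgeR.

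Of 74 mitochondrial ribosomal protein genes, 2 were called higher and 0 lower, namely MRPL50 (0.89 ± 0.24, adjusted p = 0.0152) and MRPL35 (0.74 ± 0.23, adjusted p = 0.0459), a share of members near that of all genes. Of 38 import and carrier genes, 4 were called higher and 3 lower. Those called higher serve protein import, such as the presequence translocase subunits TIMM21 at 0.85 ± 0.25 and TIMM17A at 0.79 ± 0.23, the chaperone TIMM8A at 0.80 ± 0.24 and the import motor co-chaperone GRPEL1 at 0.84 ± 0.23. The 3 called lower were the translocase subunit TIMM17B at -1.02 ± 0.24 and the carriers SLC25A1 at -0.90 ± 0.23 and SLC25A39 at -0.76 ± 0.23. Of 42 genes of mitochondrial transcription and translation, 0 were called by edgeR and 1, lower, by DESeq2 (median 0.29, with 11 higher and 3 lower at an unadjusted p under 0.05), and 12 were called higher and 3 lower without the unlabelled arm. That setting called 10 mitochondrial ribosomal protein genes higher and 2 lower, and 6 import and carrier genes higher and 7 lower. With total counts 0 members of these lists were called higher, and with either replicate left out 0 were called in either direction.

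Several short RNAs stood out. MIR3648-1 (chromosome 21, 8208473 to 8208652) is annotated as a microRNA precursor within a ribosomal RNA repeat, so its reads cannot be told apart from those of the rRNA precursor. It stood at 29.4 and 66.0 CPM in enriched libraries, against 5.02 and 9.83 CPM in inputs, with a log2 fold change of 2.66 ± 0.36 (adjusted p = 1.69e-07). The unlabelled arm had 2.47 ± 0.80 (adjusted p = 0.0194) and the APEX only arm -0.70 ± 0.68 (adjusted p = 0.62), on 4 and 5 counts in the APEX only enriched libraries. The unlabelled value also rested on few reads, with 6 and 4 counts in the enriched libraries (32.8 and 3.76 CPM). The s6G arm had 0.74 ± 0.36 (adjusted p = 0.235). RN7SL2, a copy of the signal recognition particle RNA with near-identical relatives, had the lowest log2 fold change taken by the naming rule, at 13.4 and 29.1 CPM in enriched libraries against 77.9 and 95.4 CPM in inputs (-2.10 ± 0.30, adjusted p = 9.82e-06). It was lower still in the APEX only arm, at -5.53 ± 0.43 (adjusted p = 2.37e-12), and in the s6G arm, at -4.04 ± 0.39 (adjusted p = 4.96e-10). In the unlabelled arm it had -0.45 ± 0.42 (adjusted p = 0.473). The difference between s4U and s6G, 1.94 ± 0.52, did not pass the test. Both RNAs lack the long polyA tails of mRNAs, and all libraries were polyA-selected.

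Histone mRNAs of the replication-dependent kind, which end in a stem loop and not in a polyA tail, were few in counts. Of 14 tested, 4 were called higher and 0 lower, beside 1.76% and 3.23% of all genes, with a median of 1.32 against 1.52 in the unlabelled arm. Without the block 0 were called. Both the count and the median depended on which libraries and filter chose the members. Without the unlabelled arm 11 were tested, with 5 called higher, beside 9.3% of all genes, and a median of 0.71. With only the s4U libraries 8 were tested (median 0.69), and with the stricter filter 5 (median 0.24). H4C5 had 71 counts over the enriched libraries and 6 over the inputs (4.47 and 17.8 CPM against 0.72 and 0.58 CPM). H4C2 had 27 counts over the enriched libraries and 0 over the inputs, at least 11.8-fold higher against a floor of 3 counts over the group. DESeq2 called 0 of the 14, with replicate 1 left out 1 was called and with replicate 2 left out 0, and for none did the difference between s4U and the unlabelled arm pass the test.

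Further genes taken by the naming rule, which ranks called genes whose log2 CPM averaged at least 4 and whose groups did not overlap, belonged to no list described above. TUBB4A, a neuronal beta-tubulin, at -1.69 ± 0.28, and GAMT, an enzyme of creatine synthesis, at -1.54 ± 0.26, were among its 10 lowest. So were SELENON, a selenoprotein of the endoplasmic reticulum, at -1.36 ± 0.24, and PRTFDC1, a relative of the purine salvage enzyme HPRT1, at -1.34 ± 0.30. PRTFDC1 was also called lower in the unlabelled arm (-1.40 ± 0.49, edgeR adjusted p = 0.03). In the remaining lists counts were small, beside 1.76% of all genes called higher and 3.23% called lower. Of 24 p53 targets, 2 were called higher, namely GADD45A (1.19 ± 0.24) and PMAIP1 (0.99 ± 0.23). Of 36 mitotic genes 2 were called higher, of 25 cholesterol genes 1 was (IDI1, 1.08 ± 0.24), and of 29 nucleotide synthesis genes 2 were called lower. Heat shock genes and the integrated stress response had 1 member in each direction. Of 103 KRAB zinc finger genes, 22 snoRNA host genes, 30 proteasome genes and 15 nuclear lncRNAs, 0 were called by edgeR and 0 by DESeq2, with 11, 12, 4 and 3 of them higher and 0, 1, 2 and 0 lower at an unadjusted p under 0.05. Without the unlabelled arm 10 KRAB zinc finger genes were called higher, 11 snoRNA hosts higher and 1 lower, 5 proteasome genes higher and 2 lower, and 3 nuclear lncRNAs higher, beside 9.3% and 9.7% of all genes.

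The calls of the s4U arm were shared in part with other arms. Of the genes called higher with s4U, 171 were also called higher with s6G, which is 64.3% of the s4U calls and 32.5% of the 526 s6G calls (3.47% of tested genes). A similar 155 were shared with the APEX only arm, 58.3% of the s4U calls and 23.6% of its 656 (4.33% of tested genes), and 10 with the unlabelled arm, 3.76% of the s4U calls and 0.67% of its 1499 (9.89%). Of the genes called lower with s4U, 249 were also called lower with s6G, 50.9% of the s4U calls and 49.1% of its 507 (3.35%). With APEX only 57 were shared, 11.7% of the s4U calls and 13.3% of its 427 (2.82%), and with the unlabelled arm 111, 22.7% of the s4U calls and 6.91% of its 1606 (10.6%).

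The direct test of s4U against APEX only called 16 genes higher (0.106%) and 1 lower (0.0066%). RN7SL2 and MIR3648-1, described above, led it, with differences of 3.42 ± 0.57 (adjusted p = 0.0046) and 3.36 ± 0.75 (adjusted p = 0.0341). TMEM64, a membrane protein gene, had 42.4 and 30.4 CPM in the s4U enriched libraries and 27.3 and 18.9 CPM in their inputs. In the APEX only arm it had 5.38 and 7.04 CPM in enriched libraries and 17.0 and 20.2 CPM in inputs, so that enriched levels lay above input with s4U and below it with APEX only, a difference of 2.22 ± 0.45 (adjusted p = 0.014). Without the unlabelled arm 570 genes (4.11%) were called higher and 330 (2.38%) lower in this test, and without the block 0 in each direction, and with either s4U replicate left out 1 gene was called, so the count depended on the fit.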

How the data were processed

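Gene counts in the deposited table, which the authors made from polyA-selected read pairs, were used as deposited. The table gives a whole number per library for each of 57992 Ensembl gene IDs, and the submitters' processing notes name HISAT2 2.1.0, HTSeq 0.7.2 and the build GRCh38. Which annotation and strand setting were used is not given in the sources used here; reads of overlapping or antisense genes may therefore be mixed. A deposited table of log2(TPM + 1), in which the authors added both replicates, was used for levels per length only. Current symbols were matched for 56948 IDs, and RefSeq positions (GRCh38.p14) for 14300 of the tested genes.

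The 16 MITO libraries were grouped by title and analysed in R 4.3.3 with edgeR 4.0.16 (quasi-likelihood test, robust shrinkage, TMM, default filter with a minimum count of 10, leaving 15151 genes). The model had 1 term per replicate of each arm and 1 enriched-over-input term per arm, which left 4 residual degrees of freedom, raised by shrinkage to a median of 92.1. A replicate number marks RNA of 1 biological replicate before and after capture, per the series design, and deviations of paired libraries from group means correlated with r = 0.64 with s4U, 0.53 with s6G, 0.49 with APEX only and 0.10 without labelling. On simulated counts the fit called 50% of 2-fold and 74.5% of 4-fold changes and 0.0619% of unchanged genes of 14747 for s4U enriched over input. The s4U libraries held 3495198 to 5111763 counts. DESeq2 1.42.0, other scalings, filters, sets of libraries and the fit without the block were alternatives.

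The comparison, its members and the 37 gene lists were chosen with earlier results of these data known. Text names every tested mitochondrial gene, the 10 highest and 10 lowest called genes of other DNA whose log2 CPM averaged at least 4 over the s4U libraries and whose groups did not overlap, up to 3 called members per list and up to 3 genes each way per difference between arms. Genes outside this rule (TIMM17A, TIMM17B, SLC25A1, SLC25A39, SRRM2, FN1, HNRNPC, HNRNPK and MTATP6P1) were chosen after their values were seen. Some genes taken by the rule are not reported here.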

Additional observations from a re-analysis of the deposited data

Results flagged for a closer look

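The change with s4U differed from that in the unlabelled arm, by a test of the difference, for 1608 genes in both directions, 12 of them mitochondrial mRNAs. The 3 genes furthest above were SOX9, PWWP2B and LSM1, with fitted differences of 9.25, 9.23 and 9.07. These are no bounds, since all had 0 counts in both unlabelled enriched libraries: against a floor of 3 counts over the group, the unlabelled enriched level was at least 7.33-fold, 8.12-fold and 6.76-fold lower than its input. With s4U their log2 fold changes were 0.40, -0.02 and 0.55, and none was called. The 3 furthest below were RPL10P9, RPL39P3 and HSPG2, with differences of -2.18, -2.13 and -2.10; the first and the second are ribosomal protein pseudogenes, whose reads cannot be told apart from those of their parent genes. The unlabelled enriched libraries held 123341 and 842177 counts, and the part of that depth in these differences was not tested.

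The change with s4U differed from that with APEX only for 17 genes. RN7SL2, MIR3648-1 and TMEM64 had differences of 3.42, 3.36 and 2.22. RN7SL2 had 57 and 85 counts in the s4U enriched libraries and 3 and 11 in those with APEX only. MIR3648-1 had 125 and 193 counts in the s4U enriched libraries and 4 and 5 in those with APEX only.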

How the results depend on the processing

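For s4U enriched over input, 755 genes were called with the replicate block, 17 without the replicate block, 3090 with only the s4U libraries (1 residual degree of freedom), 2634 without the unlabelled arm and 1724 with total counts. Leaving out 1 s4U replicate left 28 to 69. For s4U minus unlabelled, 1608 genes were called with the block, 40 without the replicate block, 304 with only the arms compared, and 287 to 760 with 1 replicate left out. For s4U minus APEX only, 17 genes were called with the block, 0 without the replicate block, 756 with only the arms compared, 900 without the unlabelled arm, 27 with RLE scaling, 5 with total counts, 47 with scaling from genes outside mitochondrial DNA, 1 with the stricter filter, 32 with no filter and 1 with either replicate left out. For s4U minus s6G, 0 were called with the block, and 2 with only the arms compared or without the unlabelled arm. The cause of these shifts was not tested. The difference in mitochondrial share kept its direction, at 22.2 to 34.6 percentage points with 1 replicate left out. Reversals were seen for uncalled values: MT-RNR2 against APEX only was -0.37 to 0.72 with 1 replicate left out, and MT-CO1 against s6G was 0.000139 with total counts. Where an s4U replicate is left out, the lone pair is assumed to vary like the other arms. At 2 pairs, changes of nuclear genes near 2-fold are at the limit of what these libraries can call.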
